A study of Mus musculus with 10 samples.

Results

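Chemokines and chemokine receptors were examined in RNA-seq libraries from the right atrium of 10 mice, 4 labelled Control and 6 labelled Tbx5 mutant. The members were every gene of the deposited table named Ccl, Cxcl, Ccr or Cxcr with a number, together with Cx3cl1 and Cx3cr1, which gave 57 of 23337 genes, 38 ligands and 19 receptors. The mutant label names removal of Tbx5 by a Cre recombinase driven from R26, a locus active in nearly all tissues rather than in heart muscle alone; how far Tbx5 was removed in which cells was not measured here. All mice carry the strain label mix, share the same treatment text (tamoxifen at 0.167 mg per day for 3 days, killed 1 week later) and have 2 stated age ranges, 8 to 10 weeks and 6 to 8 weeks; the alleles of the Control mice are not given by the labels. The question asked here was which members differed between the groups.

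Chemokines are small secreted proteins that direct the movement of leukocytes. They act through G protein-coupled receptors on the responding cell, and are grouped as CC, CXC and CX3C by the spacing of their first cysteines. In the heart, resident macrophages are the main leukocytes, and Ccr2 marks macrophages and monocytes that come from the blood. Several atypical receptors, Cxcr7 among them, bind chemokines without the usual G protein signal and lower their local level.

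Totals of 5703775 to 7095141 reads were counted per library, and 3 reads, taken as the smallest detectable amount, corresponded to 0.4 to 0.817 CPM (reads scaled to the library size after TMM normalization). These limits cover counting error only. The p-values weigh the group difference against the spread between these samples, and nothing in the labels states how the mice of a group were related. In mutant M3, 38.9% of reads came from the ribosomal precursor Rn45s, against 0.268% to 1.49% in the others. Tbx5 itself went against the label, with 184 to 224 CPM in the mice labelled Control and 275 to 475 CPM in the mice labelled Tbx5 mutant. Every direction below is therefore relative to the labels. Reads of Xist and the Y-linked gene Ddx3y also went against the sex label in all 4 Control mice and in none of the mutant mice. Muscle genes differed between the groups as well. Of 10 atrial cardiomyocyte genes 4 were lower (Myl7, Nppa, Sln and Ryr2) and 2 higher (Actc1 and Tnnt2). Of 4 tested ventricular genes 2 were higher (Myl2 and Myl3). By the rule given below, 8.50% of all 13084 tested genes were called higher and 7.16% lower. The summed atrial list was at 76760 to 91060 CPM in Control and 62310 to 76080 CPM in mutant mice. It lay far above the ventricular list in every library. The summed ventricular list was at 193.1 to 299.1 CPM in Control and 790.5 to 1589 CPM in mutant mice, and its part in the results was not tested.

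Sequence before the gene start is shown for 6 of the members described below for which RefSeq (GRCm38.p6) gave a promoter window: the neighbouring Cxcl9 and Cxcl10, the neighbouring Ccl8 and Ccl12, and the receptors Ccr1 and Cx3cr1. Each run is the 250 bases before the start, 5′ to 3′ on the strand of the gene. The positions are chr5:92328080-92328329 (reverse strand) for Cxcl9, chr5:92348890-92349139 (reverse) for Cxcl10, chr11:82114935-82115184 (forward) for Ccl8, chr11:82101595-82101844 (forward) for Ccl12, chr9:123968693-123968942 (reverse) for Ccr1 and chr9:120068297-120068546 (reverse) for Cx3cr1. Capitals mark matches to the motifs described after the sequences.
Cxcl9: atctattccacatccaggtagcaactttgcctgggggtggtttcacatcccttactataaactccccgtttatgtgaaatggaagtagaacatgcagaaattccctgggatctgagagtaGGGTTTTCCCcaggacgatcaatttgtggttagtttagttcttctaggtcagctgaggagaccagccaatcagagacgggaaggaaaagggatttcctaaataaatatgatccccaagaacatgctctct
Cxcl10: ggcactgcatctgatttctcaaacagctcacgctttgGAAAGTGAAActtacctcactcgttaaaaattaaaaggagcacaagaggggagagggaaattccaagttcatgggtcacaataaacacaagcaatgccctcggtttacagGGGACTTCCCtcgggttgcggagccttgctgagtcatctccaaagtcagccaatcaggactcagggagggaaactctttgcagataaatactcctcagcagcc
Ccl8: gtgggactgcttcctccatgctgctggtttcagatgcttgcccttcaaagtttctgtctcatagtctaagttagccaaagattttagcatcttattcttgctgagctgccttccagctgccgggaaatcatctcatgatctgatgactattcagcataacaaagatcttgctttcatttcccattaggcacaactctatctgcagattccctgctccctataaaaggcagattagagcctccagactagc
Ccl12: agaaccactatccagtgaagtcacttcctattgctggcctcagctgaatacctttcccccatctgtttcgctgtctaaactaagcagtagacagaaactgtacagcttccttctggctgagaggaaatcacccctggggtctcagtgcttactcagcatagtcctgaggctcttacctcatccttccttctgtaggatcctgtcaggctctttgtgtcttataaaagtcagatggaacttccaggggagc
Ccr1: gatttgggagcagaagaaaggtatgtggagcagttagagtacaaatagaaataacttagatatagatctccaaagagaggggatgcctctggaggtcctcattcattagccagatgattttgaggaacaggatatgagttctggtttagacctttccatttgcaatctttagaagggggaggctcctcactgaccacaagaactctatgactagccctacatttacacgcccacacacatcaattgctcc
Cx3cr1: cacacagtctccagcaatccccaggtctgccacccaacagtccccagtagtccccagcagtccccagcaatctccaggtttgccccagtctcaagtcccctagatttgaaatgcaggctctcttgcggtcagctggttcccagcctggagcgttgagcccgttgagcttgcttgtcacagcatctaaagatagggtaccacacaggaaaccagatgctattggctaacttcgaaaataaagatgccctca

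Of the 57 members 41 had such a window, 48 windows in all, among them 5 of the 9 genes called below; Ccl2, Cxcl5 and Cxcl16 had none. Both strands of the full 300 bases (250 before and 50 after the start) were searched. The interferon response type motif GAAANNGAAA lay in 3 member windows (Ccl19, Cxcl10 and Cxcl14), 6.25%, against 3.44% of all 32851 windows; in Cxcl10 it reads GAAAGTGAAA and begins at base -213. The NF-kappaB type motif first searched, GGGNNTTTCC, lay in 6 member windows (Ccl20, Ccl9, Ccr3, Cxcl1, Cxcl2 and Cxcl3), 12.5% against 1.63%, and in none of the 5 called genes. A wider form, GGGNNTTNCC, which contains the first, was chosen after the letters of Cxcl9 and Cxcl10 had been read, so its matches there were known beforehand. It lay in 10 member windows, 20.8% against 4.79%, and reads GGGTTTTCCC from base -130 in Cxcl9 and GGGACTTCCC from base -103 in Cxcl10. The PU.1 type motif GAGGAAGT lay in the Cxcr3 window alone among members (3.2% of all windows), the T-box type motif AGGTGTGA in that of Ccl20 alone (1.28%), and TTCCNGGAA, a gamma-activated site type, in no member window (1.15%). A match is a description of letters and was not tested as a binding site.

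Most of the family was read at low levels. No read fell on 9 members (Ccl1, Ccl20, Ccl21a, Ccl21b, Ccl21c, Ccl27b, Cxcl3, Ccr1l1 and Cxcr1), which allows up to 3 reads in each library. A further 26 members had reads but did not pass the expression filter. That left 22 members in the test, 13 ligands and 9 receptors. Of the 50-base stretches of Ccl21a, Ccl21b and Ccl27b, 71.6%, 100% and 98.1% recur in other genes, and Ccl21c had no GENCODE M21 transcript. The absence of reads is therefore uncertain for these members and does not bound their level. A gene was called when its adjusted p was under 0.05, its fold over 1.5 and its mean normalized count in Control mice above 1. By this rule 9 members were higher in the mice labelled Tbx5 mutant, where 8.50% of all 13084 tested genes were called higher. The 8 described here are the ligands Ccl2, Cxcl5, Cxcl9, Cxcl13 and Cxcl16 and the receptors Ccr1, Ccr2 and Cx3cr1. None was called lower by edgeR (7.16% of all genes were); DESeq2 called 1 lower, Ccr9. At an unadjusted p under 0.05, 12 members were higher (21.7% of all genes) and 2 lower, Ccr9 and Cxcr6 (21.1% of all genes). With no fold threshold 10 members had an adjusted p under 0.05, all higher, where 16.3% of all genes did. Without mutant M3 there were 8 called higher, since Cxcl5 no longer passed the filter. The median log2 fold change was 0.58 over the 22 members and -0.005 over all tested genes. The filter asks for 1.58 CPM of the unscaled library in at least 4 libraries. Ccl2 reached it in 1 Control library and Ccr1, Cxcl1, Cxcl5 and Cxcl9 in none, so these members passed through their reads in the mutant mice, and the counts and the median describe the tested members and are not support for a shift of the family. In 8 of the 22 tested members every mutant mouse lay above every Control mouse, which was so for 11.7% of all tested genes. Cxcr7 and Cxcr4 are among them by very narrow gaps, given below.

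**Figure D1:**
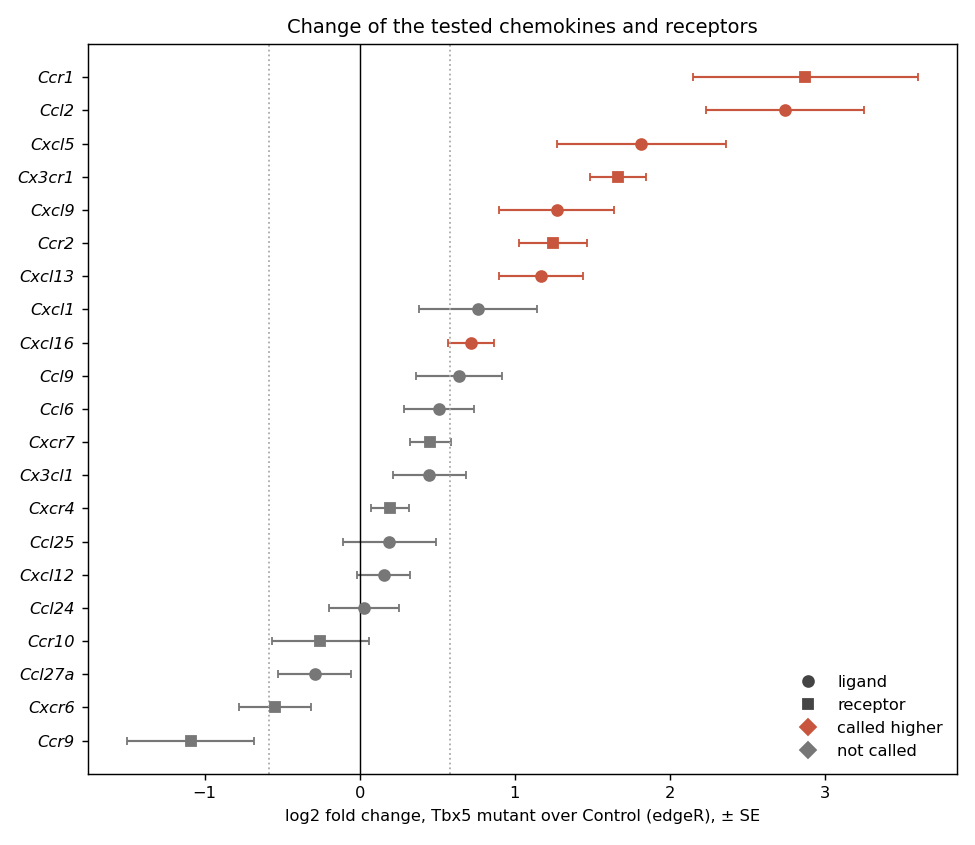
Log2 fold change (x axis) of 21 tested members, Tbx5 mutant over Control, with bars of 1 SE; circles are ligands, squares receptors, red those called higher, and dotted lines mark the fold of 1.5. The 8 called members shown lie between 0.72 (Cxcl16) and 2.88 (Ccr1), and the lowest value is -1.09 (Ccr9).

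Among the 13 tested ligands, Ccl2, which draws Ccr2-bearing monocytes, had the largest fold change. Ccl2 stood at 1.14, 1.82, 0.314 and 0.135 CPM in the Control mice (in the order M1, M2, F1, F2) and at 3.79, 2.93, 3.9, 7.54, 8.15 and 8.44 CPM in the mutant mice (F1, F2, F3, M1, M2, M3). All 6 mutant mice lay above all Control mice, although Control F1 and F2 had only 2 and 1 reads. The means were 0.853 ± 0.78 CPM (SD, n = 4) and 5.79 ± 2.51 CPM (SD, n = 6). The log2 fold change was 2.74 (SE 0.51, adjusted p = 0.00127 from edgeR's quasi-likelihood F test, adjusted by Benjamini-Hochberg over all tested genes). Over the 210 ways to split the mice 4 against 6, the exact permutation test (two-sided) gave p = 0.00952, the lowest value these group sizes can give.

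Cxcl13, the ligand of Cxcr5 that organises B cell follicles, was the called ligand with the most reads per transcript length. It stood at 23.4, 25, 21.5 and 14.2 CPM in the Control mice and at 46, 48, 36.9, 38.4, 85.2 and 25.9 CPM in the mutant mice, in the same order. The groups did not overlap, but the gap was narrow between Control M2 and mutant M3, and mutant M2 stood far above the rest. Its log2 fold change was 1.17 (SE 0.27, edgeR adjusted p = 0.00543). Its receptor Cxcr5 was at 11 reads over the Control and 12 over the mutant libraries, too few for the test.

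Cxcl16, made as a membrane protein and bound by Cxcr6, stood at 21.6, 27.6, 26.2 and 21.1 CPM in Control mice and at 38.5, 37.3, 38.6, 35.1, 33.5 and 56.9 CPM in mutant mice. The groups did not overlap, and mutant M3 was the highest. Cxcl16 had a log2 fold change of 0.72 (SE 0.15, edgeR adjusted p = 0.00242). Of the exon bases of Cxcl16, 20.5% also lie in exons of Zmynd15 on the opposite strand, and the strand setting of the counting is not given in the sources used here, so reads of the overlap cannot be assigned; Zmynd15 was at 5.68 to 9.72 CPM in Control and 7.57 to 11.2 CPM in mutant mice.

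Cxcl9, an interferon-induced ligand of Cxcr3, stood at 0.572, 0.662, 1.1 and 0.677 CPM in Control mice and at 1.74, 2.13, 0.836, 2.91, 1.6 and 1.91 CPM in mutant mice. Mutant F3 fell within the Control range and the other 5 lay above it. Its log2 fold change was 1.27 (SE 0.37, edgeR adjusted p = 0.0189), on 4 to 17 reads per library. Without Control M1 the adjusted p was 0.0571, and Cxcl9 did not pass the filter without mutant F1, F2, M1 or M2.

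Cxcl5, a neutrophil-attracting ligand of Cxcr2, stood at 0.714, 0.993, 0.157 and 0.135 CPM in Control mice and at 0.946, 1.07, 1.53, 2.4, 1.6 and 3.81 CPM in mutant mice. Mutant F1 lay just within the Control range and the other 5 above it. The log2 fold change was 1.82 (SE 0.54, edgeR adjusted p = 0.0214), on 1 to 14 reads per library. It was not past the threshold without Control F1 (adjusted p = 0.066) or without Control F2 (0.0644), and did not pass the filter without mutant F3, M1, M2 or M3. Of 7 neutrophil markers found, 5 lay under the filter. Of the 2 tested none was higher and Mmp9 was lower, where 7.16% of all tested genes were called lower. The summed list was low and overlapped, at 4.429 to 12.24 CPM in Control and 3.54 to 15.44 CPM in mutant mice. A relation of Cxcl5 to neutrophils was not tested.

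**Figure D2:**
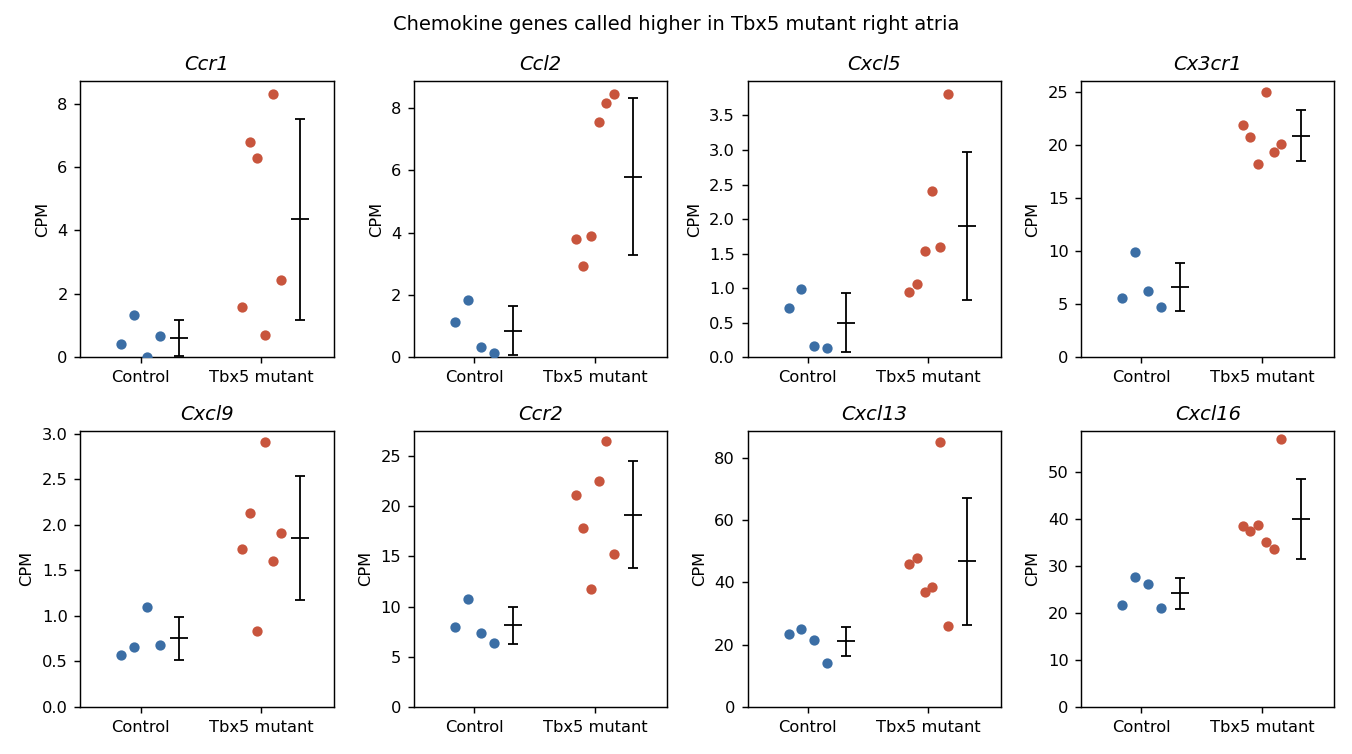
CPM (y axis, from 0, separate scale per panel) of 8 members called higher, 1 point per mouse, with the mean and SD beside each group (n = 4 Control, n = 6 Tbx5 mutant). Groups do not overlap for Ccl2, Cx3cr1, Ccr2, Cxcl13 and Cxcl16, while 1 mutant mouse each falls within the Control range for Ccr1, Cxcl5 and Cxcl9.

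The other 8 tested ligands were not called. Ccl6 and Ccl9, neighbouring CC ligands of myeloid cells, were at 44.2 ± 14.8 against 62.9 ± 17.2 CPM and at 14.7 ± 5.75 against 22.8 ± 7.72 CPM (SD, n = 4 and n = 6), with edgeR adjusted p = 0.0988 and 0.0905. In each, 3 of 6 mutant mice lay above every Control mouse. Without Control M1 the adjusted p of Ccl9 was 0.0492. Cxcl1, a neutrophil-attracting ligand, had a log2 fold change of 0.76 (SE 0.38, edgeR adjusted p = 0.143) and Cx3cl1, the ligand of Cx3cr1, one of 0.45 (SE 0.24, adjusted p = 0.164). Cxcl12, the constitutive ligand of Cxcr4 and Cxcr7, was at 29.0 ± 4.29 CPM in Control (SD, n = 4) and 32.3 ± 7.4 CPM in mutant mice (SD, n = 6), with a log2 fold change of 0.16 (SE 0.17, edgeR adjusted p = 0.514). Ccl25, Ccl24 and Ccl27a had log2 fold changes of 0.19, 0.03 and -0.29; 69.2% of the 50-base stretches of Ccl27a recur in near copies, so its reads are uncertain.

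On the scale of CPM per kilobase of the longest transcript, which allows levels of different genes to be compared, Ccl6 was the highest tested member in both groups, at 30.7 ± 10.2 in Control (SD, n = 4) and 43.7 ± 12 in mutant mice (SD, n = 6). Cxcr7 and Cxcl13 were next and lay at the same level in Control, 18.5 ± 2.53 and 18.3 ± 4.14 CPM per kilobase. In mutant mice Cxcl13, at 40.6 ± 17.7, stood beside Ccl6, and Cxcr7 was at 25.5 ± 4.68. Cxcl16 followed, at 8.94 ± 1.21 and 14.8 ± 3.16 CPM per kilobase. The called receptors were far lower, from 0.214 ± 0.195 (Ccr1) to 1.47 ± 0.509 (Cx3cr1) CPM per kilobase in Control.

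Among the receptors, Cx3cr1, found on resident macrophages and patrolling monocytes, had the smallest adjusted p of the tested members. It stood at 5.57, 9.93, 6.27 and 4.74 CPM in the Control mice (again M1, M2, F1, F2) and at 21.9, 20.8, 18.3, 25, 19.4 and 20.1 CPM in the mutant mice (F1, F2, F3, M1, M2, M3). The lowest mutant mouse lay well above the highest Control mouse. The means were 6.63 ± 2.29 CPM (SD, n = 4) and 20.9 ± 2.37 CPM (SD, n = 6), with a log2 fold change of 1.67 (SE 0.18, edgeR adjusted p = 2.08e-05).

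Ccr2, the Ccl2 receptor of blood-derived monocytes, stood at 8, 10.8, 7.37 and 6.36 CPM in Control mice and at 21.1, 17.9, 11.7, 22.5, 26.5 and 15.2 CPM in mutant mice. The groups did not overlap, with mutant F3 close to Control M2. Ccr2 had a log2 fold change of 1.25 (SE 0.22, edgeR adjusted p = 0.000904).

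Ccr1, a receptor of several inflammatory CC ligands, stood at 0.429, 1.32, 0 and 0.677 CPM in Control mice and at 1.58, 6.8, 6.27, 0.686, 8.3 and 2.45 CPM in mutant mice. Mutant M1, with 4 reads, fell within the Control range, and mutant F2, F3 and M2 stood far above it. The log2 fold change was 2.88 (SE 0.73, edgeR adjusted p = 0.00893), and Ccr1 did not pass the filter without mutant F2 or without mutant F3.

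Of the 5 receptors that were not called, Cxcr7, Cxcr6 and Ccr9 had an unadjusted p under 0.05. Cxcr7 was at 56.8 ± 7.76 CPM in Control (SD, n = 4) and 78.2 ± 14.3 CPM in mutant mice (SD, n = 6). All 6 mutant mice lay above all Control mice, but the groups almost touched, at 67.01 CPM in Control M2 and 67.04 CPM in mutant F3. The edgeR adjusted p of Cxcr7 was 0.0178, but its log2 fold change of 0.46 was under the fold threshold. Without Control F1 its adjusted p was 0.064. Cxcr6 was at 7.43, 8.93, 7.53 and 6.09 CPM in Control mice and at 6.94, 5.33, 5.16, 6.34, 2.48 and 4.36 CPM in mutant mice, so that 4 of 6 mutant mice lay below every Control mouse (log2 fold change -0.55, SE 0.23, edgeR adjusted p = 0.0856, and 0.0478 without mutant F1). Ccr9 was at 3.43, 3.14, 2.19 and 3.25 CPM in Control mice and at 1.74, 2.53, 1.53, 0.514, 1.46 and 0 CPM in mutant mice. In 5 of 6 mutant mice Ccr9 lay below every Control mouse (log2 fold change -1.09, SE 0.41, edgeR adjusted p = 0.0572), and it was past the threshold without mutant F2 (0.0281), with DESeq2 (0.0284) and with labelled sex as a covariate (0.0494). Cxcr6, a receptor of resident lymphocytes, and Ccr9, a homing receptor of thymocytes and gut lymphocytes, had the lowest log2 fold changes of the 9 tested receptors.

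Cxcr4, the receptor of Cxcl12, had a small and even difference, at 7.14 ± 0.455 CPM in Control (SD, n = 4) and 8.18 ± 0.385 CPM in mutant mice (SD, n = 6). The groups did not overlap, but the gap was narrow, from 7.611 CPM in Control M2 to 7.666 CPM in mutant F3. The log2 fold change of Cxcr4 was 0.20 (SE 0.12, edgeR adjusted p = 0.242). Ccr10 had a log2 fold change of -0.25 (SE 0.31, adjusted p = 0.565).

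Ligands under the filter are described by their reads. Ccl7, a further ligand of Ccr2, had 0, 2, 2 and 4 reads in the Control libraries (same order) and 16, 8, 7, 10, 26 and 6 reads in the mutant libraries. Ccl8, a chemokine of activated macrophages, had 0 reads in all 4 Control libraries and 8, 8, 7, 2, 23 and 1 in the mutant libraries. Pooled over libraries, Ccl7 was 6.54-fold higher in mutant mice (exact interval 3.15 to 15.7, counting error only), and Ccl8 at least 2.64-fold higher against a floor of 3 reads per Control library (0.496 CPM, the highest of the 4). Mutant M2 held 23 of the 49 Ccl8 reads, and without it the bound was 1.72-fold.

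Ccl3, a ligand of Ccr1, had 1 read in Control M1 and none in the other Control libraries, and 3, 5, 5, 5, 1 and 2 reads in the mutant libraries, a pooled ratio of 15.1 (interval 2.42 to 623). Its groups did not overlap in CPM, but Control M1 and mutant M2 had 1 read each. Cxcl10, an interferon-induced ligand of Cxcr3, had 1, 0, 4 and 5 reads in Control and 6, 16, 5, 6, 16 and 4 in mutant libraries, a pooled ratio of 3.8 (interval 1.91 to 8.38). Its groups separated in CPM but not in reads, where mutant F3 and M3 had no more than Control F2.

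Ccl12 had 1 read over the Control and 18 over the mutant libraries, and Cxcl11 had 0 and 9, a mutant level under the floor of 3 reads per Control library. GENCODE M21 lists Cxcl11 as a polymorphic pseudogene, so its reads need not stand for a working ligand. Of its exon bases 41.7% lie in the opposite-strand gene Gm2673. In a fit of all 18798 genes with any read, these 6 ligands had edgeR adjusted p-values from 0.00241 (Ccl8) to 0.0479 (Cxcl11), all with positive values. They are described here because they passed 0.05 in that fit, 6 of the 26 untested members with reads. Of all its genes 21.3% passed in either direction, so the count is not read as a result about the members. In that fit 11 of 48 members were called higher, the same 9 and Ccl7 and Cxcl10, where 6.08% of all genes were. Cxcl17 went the other way, with 11 reads in Control and 3 in mutant libraries (ratio 0.196, interval 0.035 to 0.74), and was not called (adjusted p = 0.111). The 19 other untested members with reads had 1 to 46 reads over all libraries, with Cxcl14 the highest at 19 reads in Control and 27 in mutant libraries.

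**Figure D3:**
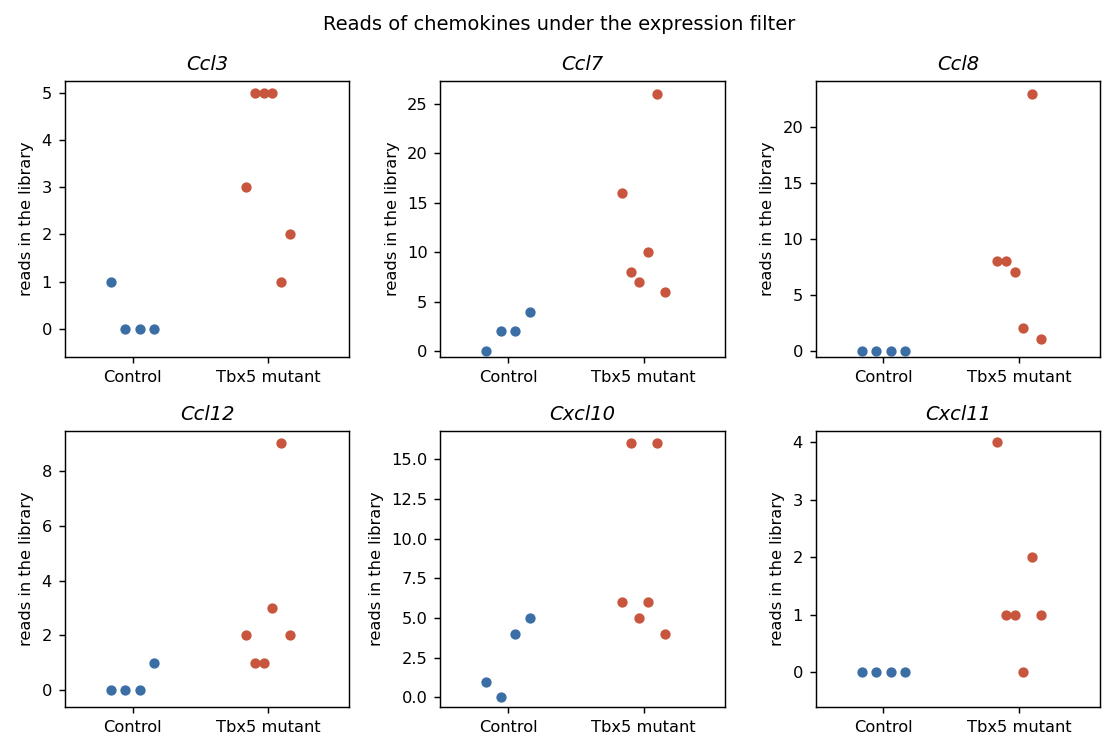
Reads in each library (y axis, separate scale per panel) of 6 ligands under the expression filter, 1 point per mouse. Control libraries hold 0 reads of Ccl8 and Cxcl11, at most 1 of Ccl3 and Ccl12, and at most 4 of Ccl7 and 5 of Cxcl10.

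By position in the genome (GRCm38), the members called higher were spread over several clusters. On chromosome 9, between 123678439 and 124113557, Ccr1 and Ccr2 were higher, while Ccr9 and Cxcr6 had the negative values given above. In the CC ligand cluster of chromosome 11 from 82035571 to 82305690, Ccl2 was higher and Ccl7, Ccl8 and Ccl12 had the low reads described; Ccl11 had 2 and 6 reads and Ccl1 none. The second CC cluster of that chromosome, from 83525778 to 83664683, holds Ccl5, Ccl9, Ccl6, Ccl3 and Ccl4. Only Ccl9 and Ccl6 were tested there, and neither was called. Ccl3, with the low reads described, Ccl4 and Ccl5 lay under the filter. Ccl5 had 5 reads in Control and 10 in mutant libraries. Cxcl9, Cxcl10 and Cxcl11 lie together on chromosome 5 from 92321347 to 92365485.

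Leukocyte genes moved in the same direction. All 10 genes of a pan leukocyte list, such as Ptprc (CD45) with a log2 fold change of 0.84 (edgeR adjusted p = 0.000788), were higher, and their summed level was 78.55 to 105.6 CPM in Control and 164.9 to 227.3 CPM in mutant mice. Of 13 macrophage genes 8 were higher (Cd68, Emr1, Csf1r, C1qa, C1qb, C1qc, Fcgr1 and Folr2), with sums of 590 to 754.1 and 850.7 to 1263 CPM. Of 5 tested monocyte genes Plac8 and Vcan were higher, and of 7 dendritic cell genes Itgax and H2-Aa. Over all 13084 tested genes 8.50% were called higher. T cell genes were read at low levels: 10 of 11 lay under the filter and so were not tested, and Cd28 was not called. Their sum was 6.362 to 8.287 CPM in Control and 5.534 to 8.228 CPM in mutant mice. In bulk tissue, more cells of a type and more RNA per cell cannot be told apart, and the part of these cells in the chemokine results was not tested.

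Relative to the leukocyte genes the members fell into different patterns, given here as a description with no test and computed after the values were seen. As a share of the summed pan leukocyte list, Cx3cr1 was 6.97 ± 2.14% in Control (SD, n = 4) and 11.2 ± 2.32% in mutant mice (SD, n = 6) and Ccr2 8.53 ± 1.58% and 10.1 ± 2.75%. Ccl2 was 0.843 ± 0.719% and 3.04 ± 1.3%. For Cx3cr1 and Ccl2, 5 of 6 mutant mice lay above every Control mouse, and for Ccr2 3 of 6 did and 1 lay below. Cxcl13 and Cxcl16 overlapped, at 22.2 ± 5.05% against 24.1 ± 8.01% and 25.8 ± 5.62% against 21.2 ± 4.69%. Cxcr6, at 7.94 ± 1.38% and 2.76 ± 1.04%, and Ccr9, at 3.14 ± 0.307% and 0.679 ± 0.479%, were lower in all 6 mutant mice. So were Ccl24, Ccl27a, Ccr10, Cxcl12, Cxcr4 and Cxcr7. The list itself was higher in every mutant mouse, so a gene with unchanged CPM falls as a share of it. Ccl24 fell with a log2 fold change of 0.03 in CPM, and Cxcr7 fell although its CPM was higher. The same was not counted over all genes, and no conclusion about the members is drawn from it. As a share of the macrophage list, itself higher in every mutant mouse, Ccl2 and Cx3cr1 were higher in all 6 mutant mice. On that scale Cxcr6 and Ccr9 were lower in all 6.

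**Figure D4:**
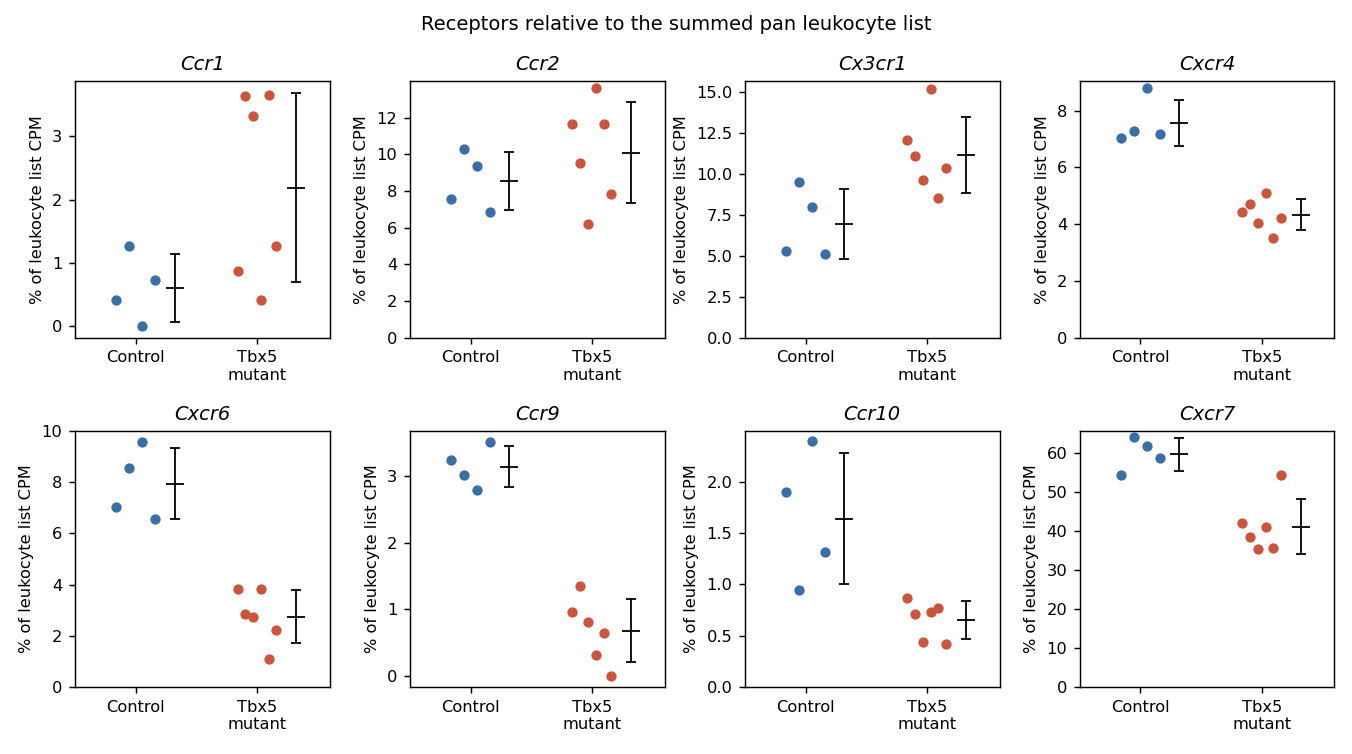
CPM of 8 receptors as a percent of the summed CPM of the pan leukocyte list (y axis, separate scale per panel), 1 point per mouse, with the mean and SD of each group (n = 4 Control, n = 6 Tbx5 mutant). Cxcr4, Cxcr6, Ccr9, Ccr10 and Cxcr7 lie lower in all 6 mutant mice, while Ccr1, Ccr2 and Cx3cr1 overlap between groups. The list itself was higher in every mutant mouse, so a gene with unchanged CPM lies lower on this scale.

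Of 10 tested genes of the chemokine system outside the name rule 2 were higher, the scavenging receptors Ccrl1 (now Ackr4), from 8.38 ± 0.485 CPM (SD, n = 4) to 22.1 ± 5.14 CPM (SD, n = 6), and Ccbp2 (now Ackr2), from 3.99 ± 1.08 to 6.60 ± 1.37 CPM. Pf4, a platelet chemokine, was not called (log2 fold change 0.55, edgeR adjusted p = 0.0925). Of 28 tested genes of receptor signalling 7 were higher, among them Pik3cg, Rac2, Dock2, Vav1, Was and Prkcb, and 2 lower (Gng2 and Rgs2). Of 20 tested NF-kappaB pathway genes 2 were higher, the leukocyte adhesion molecules Icam1 and Vcam1. Of 23 tested interferon response genes 13 were higher, among them Irf7, Isg15, Iigp1 and Bst2. The background over all genes was 8.50% called higher, and the median log2 fold changes of these 4 lists were 0.27, 0.15, 0.01 and 0.82.

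Within the mutant mice no member passed the test between labelled sexes, a comparison added after the values were seen. Ccl2 was at 3.54 CPM in the 3 labelled female and 8.05 CPM in the 3 labelled male mice (means), with every male above every female, and the same order held for Ccl24 and Cxcl5. Every male lay above every female in 4 of 21 tested members, against 6.12% of the 12881 genes tested, and every female above every male in 1, Ccr9, against 6.22%. By edgeR 0 of the 21 members had an adjusted p under 0.05 (adjusted p = 0.286 for Ccl2, log2 difference 1.18, SE 0.22), and 8 of all genes passed (0.0621%). In the Control mice Ccl2 was at 1.14 and 1.82 CPM in those labelled male and 0.314 and 0.135 CPM in those labelled female, and Cxcl5 at 0.714 and 0.993 against 0.157 and 0.135 CPM. By label this is the order of the mutant mice, and by the Xist and Ddx3y reads it is the opposite order.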

How the data were processed

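The authors deposited a table of read counts per gene, whole numbers without normalization, for 10 right atrial libraries, and the same counts divided by a size factor per library, a normalized signal. Its columns of the authors' own comparison were not used. The submitters' processing notes name FastQC, TopHat2 2.0.11, featureCounts, DESeq2 and mm10. The gene annotation and strand setting are not given in the sources used here. The labels name both an mRNA kit and a total RNA kit.

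Counts were tested with edgeR 4.0.16 in R 4.3.3 (expression filter, TMM, quasi-likelihood test over 13084 genes, Benjamini-Hochberg adjustment, prior count 0.125), Control against Tbx5 mutant. Standard errors were taken as the size of the log2 value divided by the root of the F statistic. Permutation tests used log2(CPM + 0.5). Each member past the filter is named, and the others by their reads, except that a few genes are counted but not reported here. On simulated data, 161 of 200 genes changed by a fold of 2 were recovered among 13084 genes, with 7 other calls. Alternatives included DESeq2 1.42.0, limma 3.58.1, other scalings and filters, and each library left out. The lowest chi-square per degree of freedom between libraries of a group was 3.94, so none was a repeat. The members and lists were chosen with earlier results of these data known. GENCODE M21 gave lengths and positions for 56 members.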

Additional observations from a re-analysis of the deposited data

Results flagged for a closer look

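In groups of 4 or 6 mice, a value was singled out where its gap to the nearest mouse was large against the range of the group (Dixon's test at the 95% level). Of 52 groups of values looked at, 4 were singled out, where chance gives about 2.6 at 1 in 20. Ccl8 reached 3.35 CPM in mutant M2, and Cxcl13 reached 85.2 CPM in the same mouse. Cxcl16 reached 56.9 CPM in mutant M3, and Cxcr7 reached 105 CPM in that mouse, whose library had 38.9% of its reads on Rn45s. Mutant M2 also had the highest summed adipocyte list, 20.82 CPM, against at most 4.136 CPM in the Control mice; the part of either fact in these values was not tested.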

How the results depend on the processing

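The number of members called higher was 9 and stayed between 7 and 11 under all but one alternative; with a mean count of at least 50 it was 5, with fewer members tested. Leaving out each library in turn gave 7 to 10 higher and 0 to 1 lower. Ccr2, Cx3cr1 and Cxcl13 were called in each refit of the data. One member, Ccr9, was called lower with DESeq2, with labelled sex as a covariate and with the Control sex labels exchanged (added after seeing the data), 1 each. Over all genes, calls went from 1112 higher and 937 lower to 653 higher with a mean count of at least 50, to 539 and 367 with a fold over 2, and to 2129 and 1967 with no fold threshold. Same-numbered mice did not deviate together (mean correlation -0.00712, against 0.00129 for the rest), and no pairing was taken from the labels. The fit with the replicate block gave 10 members higher (Ccl6 added, adjusted p = 0.0141), 0 lower, and 1054 and 903 genes in all, and with the block and the length trend removed 8 members (Cxcl16 under the fold threshold). The values of Ccl24 and Ccl25, near 0, changed sign. Ccl24 was -0.053 under quantile normalization, -0.037 with the block, -0.17 with the length trend removed, -0.0034 with the GC trend removed, -0.21 with block and length, and between -0.084 and 0.13 with a library left out (below 0 without Control F2, mutant M2 or mutant M3). Ccl25 was -0.020 with the block and -0.091 with block and length. The cause of these changes was not tested. Log2 fold changes correlated with transcript length over 12951 genes (Spearman -0.316, and 0.0065 after its removal, which left 9 members called). Members with few reads are limited by depth, and Cxcl9 lost its call under quantile normalization (adjusted p = 0.102 with limma).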

Other observations

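Other cell type lists were read beside the chemokines, and their part in the results was not tested. Over all tested genes 8.50% were called higher and 7.16% lower. Of 9 fibroblast genes 4 were higher (Col1a1, Col1a2, Col3a1 and Postn), with sums of 4150 to 5631 CPM in Control and 7473 to 10760 CPM in mutant mice. Of 10 tested endothelial genes Sele, an adhesion molecule for leukocytes, was higher, and of 5 lymphatic genes Prox1 was lower. Of 2 tested B cell genes Blk was higher, with sums of 11.13 to 17 and 13.83 to 20.19 CPM. The 9 NK cell genes lay under the filter, with sums of 1.624 to 2.665 CPM in Control and 3.54 to 6.151 CPM in mutant mice. None of 4 tested platelet genes and not the 1 tested mast cell gene was called; sums were 6.949 to 27.61 against 4.114 to 45.14 CPM, and 6.573 to 10.56 against 8.399 to 13.94 CPM. No adipocyte or thymus epithelium gene was tested, and the thymus sum was at most 0.1654 CPM in any mouse. Of the erythroid genes Alas2 was higher, and 4 globin genes are listed at 0, after a globin removal step named in the labels.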
